A study of Mus musculus with 6 samples.

Results

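Spleen RNA of female NOD mice, an inbred strain that develops autoimmune type 1 diabetes without induction, was examined for 38 genes of mitosis and the spindle. The list was given by gene name, and each gene was read from the probe set that names it alone, or, where several did, from the 1 with the highest mean over the 6 arrays. Of the 38 genes, 37 had such a probe set, among 18193 genes on the array. Ccnb1, the cyclin B1 gene, had none in the annotation used and is described separately. All values are log2 hybridization levels on Affymetrix mouse genome arrays, so that a difference of 1 is a doubling of the signal.

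The arrays came from 3 groups, namely non-diabetic mice left untreated, diabetic mice left untreated (labelled as sick) and mice given trichostatin A (TSA), an inhibitor of histone deacetylases, which stayed free of diabetes. TSA was injected at 500 µg/kg every week from 18 to 24 weeks of age into mice still free of diabetes. The labels give an age of 32 to 36 weeks for all groups, whereas the study's methods have the diabetic mice killed younger than the TSA-treated mice, and age and group cannot be told apart. The methods also state that TSA-treated mice that remained diabetic were left out, so that the treated group is a selected one, and the control mice are labelled untreated, with no injection of the solvent. The RNA of several mice was pooled into 1 pool per group, and each pool was labelled and hybridized in duplicate, so that all p-values describe the spread between hybridizations and not between mice. The labels name the source as splenocytes and the methods as lysed spleens, and Ptprc (CD45), which marks white blood cells, was at 11.87 to 12.27 on every array. The 7 measured genes of a lymphocyte list, which holds Ptprc, all had a lower mean in TSA-treated than in untreated mice (median -0.80).

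In a dividing cell Cdk1 with cyclins A and B starts mitosis, Aurora and Polo kinases build the spindle, and the kinetochore binds each chromosome to microtubules. The spindle checkpoint holds the anaphase-promoting complex in check until every chromosome is attached, after which Cdc20 and Ube2c let cyclins and securin be destroyed, and the central spindle and a contractile ring divide the cell. Most of these genes are transcribed mainly in G2 and M phase. In the spleen the dividing cells are chiefly activated lymphocytes and, in rodents, erythroid precursors of the red pulp. In RNA from whole cell mixtures, more cells of a dividing type and more RNA per dividing cell cannot be told apart.

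The mitosis and spindle genes were higher on the diabetic and TSA-treated arrays than on the untreated non-diabetic arrays. In diabetic mice 36 of 37 had a higher mean than in untreated non-diabetic mice, as had 57.2% of all genes. In TSA-treated mice 35 of 37 had, against 59.8% of all genes. The median difference over the 37 genes was 0.76 in diabetic mice, against 0.04 over all genes, and 1.11 in TSA-treated mice, against 0.07 over all genes. Bub1, a kinase of the spindle checkpoint, had the largest difference of the 37 in diabetic mice (3.39-fold higher) and was 4.66-fold higher in TSA-treated mice. Ect2, which switches on RhoA for cell division, had the largest in TSA-treated mice (4.84-fold higher) and was 2.43-fold higher in diabetic mice. None of the 37 passed limma at an adjusted p under 0.05 in any comparison. The plot of shifts by gene and array gives all values.

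**Figure D1:**
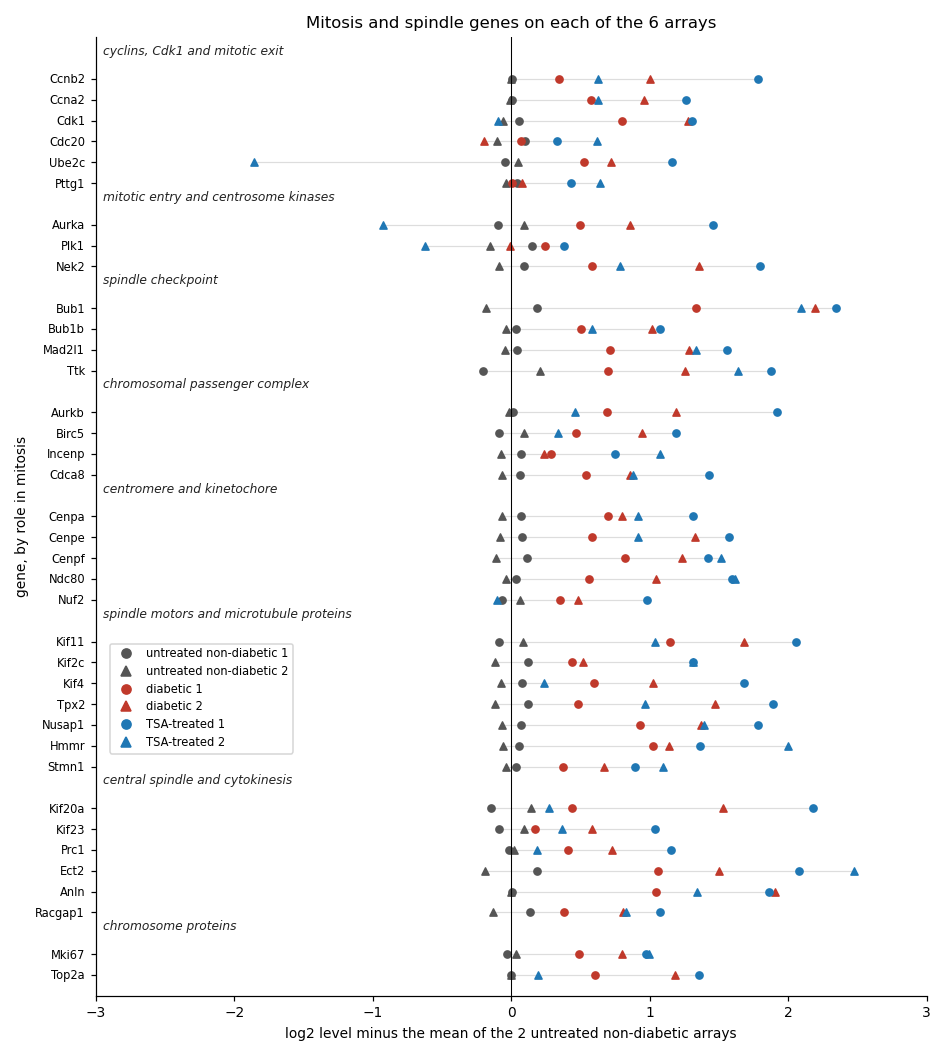
Log2 level of each of the 37 measured mitosis and spindle genes on the 6 arrays, minus its mean over the 2 untreated non-diabetic arrays (horizontal axis), with the genes grouped by role (vertical axis). Colours are groups and symbols are duplicates, and the grey line spans the range of a gene. In 30 of the 37 genes all 4 diabetic and TSA-treated arrays lie to the right of both untreated arrays, and the second TSA-treated array lies far to the left for Ube2c and Aurka.

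Promoter sequences are shown for 5 members because genes of this kind are known to share a pair of short elements. They are the CHR (cell cycle genes homology region, TTTGAA), the site of the DREAM and MuvB complexes, and the CCAAT box (CCAAT), the site of NF-Y. The windows are from RefSeq on GRCm38.p6 and run from 250 bases before to 50 bases after the transcription start, 5′ to 3′ on the gene's own strand. Capitals mark TTTGAA and CCAAT on either strand (ATTGG is CCAAT on the other strand), and no marked match overlaps another. Ccnb2 (chr9:70421505-70421804, minus strand) and Cdk1 (chr10:69352863-69353162, minus strand) carry both elements, as does Ect2 (chr3:27153829-27154128, minus strand), the member with the largest difference in TSA-treated mice. Bub1 (chr2:127831810-127832109, minus strand), with the largest difference in diabetic mice, carries CCAAT boxes but no exact TTTGAA. Nusap1 (chr2:119618048-119618347, plus strand) has neither run of letters in its window. Variant forms of the elements were not searched for.
Ccnb2: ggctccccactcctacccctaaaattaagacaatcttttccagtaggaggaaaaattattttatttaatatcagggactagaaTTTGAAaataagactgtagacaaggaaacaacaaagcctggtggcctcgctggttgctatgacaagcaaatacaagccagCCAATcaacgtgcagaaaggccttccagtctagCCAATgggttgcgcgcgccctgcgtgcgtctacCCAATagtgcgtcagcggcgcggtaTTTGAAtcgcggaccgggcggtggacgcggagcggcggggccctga
Cdk1: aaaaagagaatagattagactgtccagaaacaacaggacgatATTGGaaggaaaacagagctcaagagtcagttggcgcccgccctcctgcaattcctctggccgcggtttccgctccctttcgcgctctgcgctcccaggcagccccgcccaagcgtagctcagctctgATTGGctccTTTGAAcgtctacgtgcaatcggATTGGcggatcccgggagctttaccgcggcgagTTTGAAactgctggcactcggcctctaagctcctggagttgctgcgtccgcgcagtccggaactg
Ect2: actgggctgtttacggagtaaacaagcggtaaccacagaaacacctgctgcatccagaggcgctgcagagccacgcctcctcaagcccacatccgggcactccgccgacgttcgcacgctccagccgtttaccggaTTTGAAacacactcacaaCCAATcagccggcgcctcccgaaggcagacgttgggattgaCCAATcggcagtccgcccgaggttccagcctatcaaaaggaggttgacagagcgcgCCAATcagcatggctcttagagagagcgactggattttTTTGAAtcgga
Bub1: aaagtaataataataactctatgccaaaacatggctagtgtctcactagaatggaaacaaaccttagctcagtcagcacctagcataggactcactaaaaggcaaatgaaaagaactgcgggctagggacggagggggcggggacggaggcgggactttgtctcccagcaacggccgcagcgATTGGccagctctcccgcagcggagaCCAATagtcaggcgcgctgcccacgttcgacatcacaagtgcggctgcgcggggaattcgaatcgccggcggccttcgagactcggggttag
Nusap1: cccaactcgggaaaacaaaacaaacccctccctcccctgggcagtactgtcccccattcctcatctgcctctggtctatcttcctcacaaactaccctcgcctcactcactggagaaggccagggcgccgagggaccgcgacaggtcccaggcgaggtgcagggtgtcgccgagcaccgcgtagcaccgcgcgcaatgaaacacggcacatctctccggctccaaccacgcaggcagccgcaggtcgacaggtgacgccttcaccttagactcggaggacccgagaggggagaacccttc

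Of the 38 genes, 32 had a promoter in the table, with 34 windows in all. TTTGAA was found in 25 of the 34 windows (73.5%) and in 17.9% of all 32851 promoter windows of that length. CCAAT was found in 26 of the 34 (76.5%) against 37.4% of all, and 2 or more copies in 18 (52.9%) against 11.7%. Both elements stood together in 22 windows (64.7%) against 6.95% of all, and a TTTGAA within 60 bases of the start in 23 (67.6%) against 5.5%. The 23 measured genes with TTTGAA had a median difference of 0.75 in diabetic and 0.98 in TSA-treated mice, and the 8 without it 0.96 and 1.27. A match is a run of letters, not a measured binding site, and the windows of the remaining genes (Ccna2, Aurkb, Incenp, Tpx2, Stmn1 and Kif20a) were not in the table.

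Diabetic mice were compared with untreated non-diabetic mice to ask which spleen transcripts differ in overt disease. No member was called by limma (adjusted p from 0.576 to 1), where 0.121% of all genes were called higher and 0.0055% lower. At an unadjusted limma p under 0.05, 19 members were higher and 0 lower, against 4.33% of all genes higher and 2.41% lower. By the local pooled error (LPE) test, which borrows variance from genes of similar level, 1 member, Bub1, was called higher and 0 lower, against 0.187% and 0.148% of all genes. By the methods' t-test none was called. Both diabetic arrays lay above both untreated non-diabetic arrays for 34 members, and for 25.5% of all genes. For 0 members both lay below, as they did for 17.5% of all genes. The difference reached 1, a doubling, in 8 members and in 172 of all 18193 genes.

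TSA-treated mice were compared with untreated non-diabetic mice to ask how the spleen of treated, diabetes-free mice differs from that of mice that stayed healthy without the drug. It shares the untreated arrays with the comparison above, so the values of both are not independent. Again limma called no member (adjusted p from 0.0777 to 0.913), where 0.0934% of all genes were called higher and 0.022% lower. At an unadjusted limma p under 0.05, 26 members were higher and 0 lower, against 8.8% of all genes higher and 7.19% lower. The LPE test called 4 members higher, namely Bub1, Nusap1, Hmmr and Ect2, and 0 lower, against 0.462% and 0.627% of all genes. Both TSA-treated arrays lay above both untreated arrays for 32 members and for 29.9% of all genes. For 0 members both lay below, as they did for 19.6% of all genes, and the arrays of 5 members overlapped. The difference reached 1 in 19 members and in 529 of all 18193 genes. Across the 3 groups the limma F test called no member (lowest adjusted p = 0.168), where 0.148% of all genes were called, while 23 of 37 had an unadjusted p under 0.05, against 10.6% of all genes.

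Limma's calls in TSA-treated mice depended on the arrays in the fit. Where the 2 groups were fitted alone, 8 members passed, namely Bub1, Mad2l1, Ttk, Cenpf, Ndc80, Kif2c, Nusap1 and Ect2, all higher, with adjusted p from 0.0361 to 0.0493, and 0.945% of all genes were called higher in that fit. Leaving out either diabetic replicate repeats this fit and is not a further test, because the diabetic array that remains adds nothing to the spread. Without TSA-treated replicate 1 the median difference over the 37 genes was 0.83, with Ect2 higher by 2.47 and Ube2c lower by 1.85. Without TSA-treated replicate 2 the median was 1.36. In these fits a single array stood for the TSA-treated group and the spread came from the other groups, so calls are not given.

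**Figure D2:**
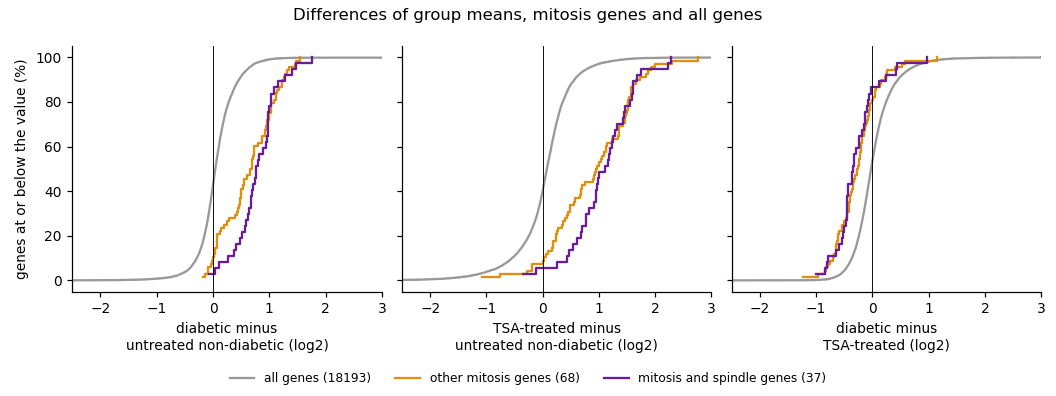
Cumulative share of genes (vertical axis, %) at or below each difference of group means (horizontal axis, log2), for the 3 comparisons. Lines are the 37 mitosis and spindle genes, 68 other mitosis genes and all 18193 genes. Both mitosis curves lie to the right of all genes against untreated non-diabetic mice (medians 0.76 and 0.67 in diabetic, 1.11 and 0.95 in TSA-treated mice) and to the left when diabetic are set against TSA-treated mice (medians -0.34 and -0.26).

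The cyclins, Cdk1 and the genes of mitotic exit did not all run the same way. Their median difference over 6 measured genes was 0.65 in diabetic and 0.57 in TSA-treated mice. In each of these comparisons 4 of the 6 were higher without overlap with the untreated arrays, against 25.5% and 29.9% of all genes. Cdk1, the kinase that drives entry into mitosis, stood at 8.52 and 8.40 on the untreated non-diabetic arrays, 9.25 and 9.73 on the diabetic and 9.76 and 8.36 on the TSA-treated arrays. Both diabetic arrays were above the untreated arrays (difference 1.03 ± 0.45, SE), whereas the second TSA-treated array was level with them. Ccnb2, cyclin B2, was at 8.09 and 8.08, then 8.43 and 9.09, then 9.87 and 8.71, with no overlap of either group with the untreated arrays. Its difference was 0.68 ± 0.41 (SE) in diabetic and 1.21 ± 0.41 in TSA-treated mice. Ccna2, cyclin A2, was higher by 0.76 and 0.95 without overlap by its chosen probe set (mean level 9.26). Another Ccna2 probe set, nearly as bright (9.17), was higher by 0.65 and 0.51, and its TSA-treated arrays overlapped with the untreated ones.

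Cdc20 and Pttg1, by their chosen probe sets, had differences near 0 in diabetic mice (-0.07 and 0.04) and of 0.47 and 0.54 in TSA-treated mice. Cdc20, which activates the anaphase-promoting complex, was at 10.77 and 10.57 in untreated non-diabetic, 10.74 and 10.47 in diabetic and 11.00 and 11.29 in TSA-treated mice. Pttg1, securin, which holds separase inactive, was at 12.37 and 12.30, then 12.34 and 12.41, then 12.77 and 12.98. In both genes the diabetic arrays overlapped with the untreated arrays and both TSA-treated arrays lay above all 4 others. The difference between diabetic and TSA-treated mice was -0.54 ± 0.20 (SE) for Cdc20 and -0.50 ± 0.16 for Pttg1 (adjusted p = 0.902 for each, limma). Dimmer probe sets of the same genes gave other values. In diabetic mice the other Cdc20 probe sets were higher by 0.33 and 0.41 and those of Pttg1 by 0.60 and 0.21, without overlap with the untreated arrays except for the last. In TSA-treated mice they were higher by 0.32 and 0.66 for Cdc20 and by 0.71 and 0.82 for Pttg1, with overlap for the first of each gene.

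Ube2c, the ubiquitin-conjugating enzyme of the anaphase-promoting complex, gave the widest gap between duplicates. It stood at 8.96 and 9.06 in untreated non-diabetic, 9.54 and 9.73 in diabetic and 10.17 and 7.16 in TSA-treated mice. The TSA-treated arrays were the highest and the lowest of the 6, and their mean difference of -0.35 from untreated mice had an SE of 0.89. On its own the second array placed Ube2c 1.85 lower than the untreated mean. A fit on that array alone leaves out its gap to the first and takes the spread from the other groups. Aurka, the Aurora A kinase of the centrosome, followed the same pattern at 6.35 and 6.54, then 6.94 and 7.30, then 7.90 and 5.52. Plk1, the Polo-like kinase, was at 5.11 and 4.80, 5.20 and 4.94, and 5.34 and 4.33, with all 3 groups overlapping. Nek2, which separates the centrosomes, was higher by 0.97 in diabetic mice and by 1.29 after TSA, with no overlap.

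Ccnb1, outside the counts, was read from a probe set that a supplementary list of the study names Ccnb1. Another of its lists names this probe set Ccnb1-rc, and the descriptions in both, cut short, mark it as related to cyclin B1. Its values may therefore not be those of Ccnb1 alone. It stood at 9.12 and 9.05 in untreated non-diabetic, 10.13 and 10.33 in diabetic and 10.69 and 10.41 in TSA-treated mice. The 3 groups did not overlap. The difference from untreated mice was 1.15 ± 0.18 (SE) in diabetic (adjusted p = 0.434, limma) and 1.47 ± 0.18 in TSA-treated mice (adjusted p = 0.0894).

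By their chosen probe sets all 4 spindle checkpoint genes were above the untreated arrays on every diabetic and TSA-treated array, as were 15.5% of all genes. All 4 were higher at an unadjusted limma p under 0.05 in both comparisons, against 4.33% and 8.8% of all genes. The median difference was 0.99 in diabetic and 1.60 in TSA-treated mice. The dimmer probe sets of Bub1 (mean level 2.86) and Ttk (3.08) differed by -0.0005 and -0.16 in diabetic and by 0.40 and 0.04 in TSA-treated mice. Those of Bub1b (6.83 and 3.05) differed by 0.92 and -0.19 in diabetic and by 0.84 and -0.12 in TSA-treated mice. After TSA both of these overlapped with the untreated arrays. Bub1 stood at 6.55 and 6.19 in untreated non-diabetic, 7.70 and 8.56 in diabetic and 8.72 and 8.46 in TSA-treated mice. The untreated arrays were more than 1 below the lowest of the other 4, and the diabetic and TSA-treated arrays overlapped. The difference was 1.76 ± 0.32 (SE) in diabetic (adjusted p = 0.576 by limma, 0.00697 by LPE) and 2.22 ± 0.32 in TSA-treated mice (adjusted p = 0.098 by limma, 0.00235 by LPE).

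Ttk, the kinase Mps1 that recruits the checkpoint to kinetochores, was at 5.49 and 5.90, then 6.39 and 6.95, then 7.57 and 7.33, so that the 3 groups formed separate steps. Its difference between diabetic and TSA-treated mice was -0.78 ± 0.26 (SE, adjusted p = 0.902, limma). Mad2l1, which binds Cdc20 when the checkpoint is on, formed the same steps at 7.96 and 7.87, 8.63 and 9.20, and 9.47 and 9.25. Bub1b, the BubR1 subunit of the checkpoint complex, was higher than in untreated mice by 0.76 ± 0.25 (SE) in the diabetic and by 0.83 ± 0.25 in the TSA-treated group, which overlapped with each other.

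The chromosomal passenger complex corrects faulty attachments at the centromere. Its 4 genes were all higher without overlap in both comparisons by their chosen probe sets, against 25.5% and 29.9% of all genes. Their median difference was 0.70 in diabetic and 1.03 in TSA-treated mice. Incenp, the scaffold, was at 10.23 and 10.09 in untreated non-diabetic, 10.45 and 10.40 in diabetic and 10.91 and 11.23 in TSA-treated mice. The diabetic arrays were close to the untreated ones (0.26 ± 0.18, SE) and the TSA-treated arrays above both groups (0.91 ± 0.18 from untreated, adjusted p = 0.14, limma). The 4 dimmer probe sets of Incenp did not share this pattern, with differences of 0.33, -1.26, 0.03 and 0.33 in diabetic and of -0.32, -0.75, 0.02 and -0.11 in TSA-treated mice. Aurkb, the Aurora B kinase of the complex, instead was at 5.60 and 5.58, then 6.28 and 6.78, then 7.51 and 6.05, where the second TSA-treated array was below both diabetic arrays. Birc5 (survivin) was higher by 0.71 and 0.76, with TSA-treated arrays of 10.47 and 9.62 against 9.19 and 9.37 in untreated mice. Cdca8 (borealin) was higher by 0.70 and 1.15.

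Among the 5 centromere and kinetochore genes the median difference was 0.80 in diabetic and 1.25 in TSA-treated mice. Ndc80, which grips the microtubule, stood at 5.74 and 5.67, 6.26 and 6.75, and 7.30 and 7.32. The 3 groups were separate, and the duplicates of the outer groups nearly coincided. Its difference in TSA-treated mice was 1.60 ± 0.20 (SE, adjusted p = 0.0921, limma) and between diabetic and TSA-treated mice -0.80 ± 0.20. Cenpf, a large kinetochore protein of G2 and M phase, was at 7.80 and 7.57, 8.51 and 8.92, and 9.11 and 9.20, also in separate steps. Cenpa, the histone H3 variant that marks the centromere, was higher by 0.75 and 1.11 and Cenpe, a kinetochore motor, by 0.96 and 1.25. Dimmer probe sets of Cenpa differed by -0.35 and 0.17 in diabetic and by -0.42 and 0.93 in TSA-treated mice. The dimmer Cenpe probe set (mean level 3.90) differed by -0.52 and -1.88. Nuf2, the partner of Ndc80 in the same complex, was higher by 0.41 in diabetic mice without overlap, and its TSA-treated arrays of 6.67 and 5.60 lay above and below the untreated 5.63 and 5.76.

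All 7 genes of spindle motors and microtubule proteins were higher without overlap in both comparisons by their chosen probe sets, against 25.5% and 29.9% of all genes. The median difference was 0.98 in diabetic and 1.43 in TSA-treated mice. Nusap1, which bundles spindle microtubules, stood at 8.63 and 8.49, 9.49 and 9.93, and 10.34 and 9.96. The steps did not overlap, and the difference of 1.59 ± 0.23 (SE) in TSA-treated mice had an adjusted p of 0.0988 by limma and 0.0358 by LPE. Hmmr, a spindle assembly protein that also binds hyaluronan, was at 7.23 and 7.11, 8.20 and 8.31, and 8.53 and 9.17, with an adjusted p of 0.0985 by limma and 0.049 by LPE in TSA-treated mice. Its dimmer probe sets were higher by 1.01, 1.30, 0.17 and 0.65 in TSA-treated mice, with overlap except for the last. The dimmer probe sets of Nusap1 and Stmn1 were higher without overlap in both comparisons.

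Kif2c, a kinesin that shortens microtubules, had TSA-treated arrays that agreed at 2 decimals, with values of 6.72 and 6.48, 7.03 and 7.12, and 7.91 and 7.91. Its difference was 0.48 ± 0.16 (SE) in diabetic mice and 1.31 ± 0.16 after TSA (adjusted p = 0.092, limma), and -0.84 ± 0.16 between diabetic and TSA-treated mice. The dimmer probe sets of Kif2c differed by 0.45, -0.08 and -0.06 in diabetic and by 0.14, 0.14 and 0.17 in TSA-treated mice. Each of them overlapped with the untreated arrays after TSA, and the first read 5.58 and 3.97 on the TSA-treated arrays. Kif11, the Eg5 motor that pushes the poles apart, was at 6.02 and 6.20, 7.26 and 7.79, and 8.16 and 7.15. Both groups were above the untreated arrays and overlapped with each other. Dimmer Kif11 probe sets differed by 0.96 and 0.34 in diabetic and by -0.13 and -0.53 in TSA-treated mice, with overlap in the latter. Kif4, a chromosome-bound kinesin, was higher by 0.81 and 0.96, with TSA-treated arrays of 8.48 and 7.04 against 6.88 and 6.73 in untreated mice, so that the second lay close to them. Tpx2, which activates Aurora A on the spindle, was higher by 0.98 and 1.43, and Stmn1 (stathmin), which takes up free tubulin and is also made outside mitosis, by 0.52 and 0.99.

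The 6 genes of the central spindle and cytokinesis were higher without overlap in both comparisons by their chosen probe sets, against 25.5% and 29.9% of all genes. Their median difference was 0.79 in diabetic and 1.09 in TSA-treated mice. Ect2 stood at 7.06 and 6.69 in untreated non-diabetic, 7.93 and 8.38 in diabetic and 8.95 and 9.35 in TSA-treated mice. The groups formed 3 separate steps. The difference from untreated mice was 1.28 ± 0.25 (SE) in diabetic (adjusted p = 0.664, limma) and 2.27 ± 0.25 in TSA-treated mice, with an adjusted p of 0.0777, the lowest of the 37, and of 0.000732 by LPE. Anln (anillin), which links actin and myosin in the contractile ring, was at 6.64 and 6.64, 7.68 and 8.54, and 8.50 and 7.98. Its untreated arrays coincided at 2 decimals, and the diabetic and TSA-treated arrays overlapped.

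Kif20a, a kinesin of the central spindle, was at 5.10 and 5.39, 5.68 and 6.77, and 7.43 and 5.52, with wide duplicates in both groups. Prc1, which cross-links the central spindle, was higher by 0.57 and 0.67, with TSA-treated arrays of 9.49 and 8.52 against 8.31 and 8.35 in untreated mice, so that here too the second lay close to them. Kif23 and Racgap1, the centralspindlin pair that positions Ect2, were higher by 0.38 and 0.70 and by 0.59 and 0.95. Of the 2 chromosome proteins, Mki67 (Ki-67), the usual marker of proliferation, was at 11.39 and 11.45, 11.91 and 12.22, and 12.39 and 12.41. These were 3 separate steps with differences of 0.64 ± 0.17 (SE) and 0.98 ± 0.17. Top2a, which untangles DNA for segregation, was at 9.83 and 9.83, 10.44 and 11.01, and 11.19 and 10.02, with the diabetic mean above the TSA-treated one by 0.12.

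Diabetic and TSA-treated mice were compared to ask what treatment changed relative to disease. No member was called by limma (adjusted p from 0.902 to 0.994), where 0.0495% of all genes were called higher and 0.0055% lower in diabetic mice, and none by the methods' t-test or by LPE, which called 0.126% of all genes higher. The mean was lower in diabetic than in TSA-treated mice in 32 of 37 members and in 9742 of all 18193 genes. The median difference was -0.34, against -0.02 over all genes. At an unadjusted limma p under 0.05, 9 were lower (Cdc20, Pttg1, Ttk, Incenp, Ndc80, Kif2c, Hmmr, Stmn1 and Ect2) against 2.68% of all genes, and 0 higher, against 2.81%. Both diabetic arrays lay below both TSA-treated arrays for 16 members and for 16.2% of all genes, and above them for 0 members and 12.4% of all genes, and 21 members overlapped. The median depended on single arrays: it was -0.03 without diabetic replicate 1, 0.01 without TSA-treated replicate 1 and -0.56 without TSA-treated replicate 2.

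Over the 3 groups, 31 of 37 members had means in the order untreated non-diabetic, diabetic, TSA-treated, as had 29.1% of all genes, and 5 had the diabetic mean on top (Cdk1, Ube2c, Aurka, Plk1 and Top2a), as had 28.1% of all genes. In 30 members all 4 diabetic and TSA-treated arrays were above both untreated arrays, as in 15.5% of all genes. The exceptions were Cdk1, Cdc20, Ube2c, Pttg1, Aurka, Plk1 and Nuf2.

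The duplicates of 1 RNA pool differed for these genes and across the arrays. Duplicates had a Pearson correlation of 0.993 (untreated), 0.973 (diabetic) and 0.966 (TSA-treated). The first diabetic array correlated better with both untreated arrays (0.987 and 0.985) than with its duplicate. The second diabetic and first TSA-treated arrays correlated better with each other (0.990) than with their duplicates. The remaining arrays were closest to their own duplicates. The part of these array differences in the group steps was not tested. The second diabetic array was above the first in 34 of 37 members, by a median of 0.43, and in 58.1% of all genes. The second TSA-treated array was below the first in 28 of 37, by a median of 0.54, and in 45.4% of all genes. Gaps in the 37 ran from -3.01 to 0.64. Gaps larger than 1 were found in 12 members between the TSA-treated arrays (8.7% of all genes) and in 1 between the diabetic arrays (2.54%). Between the untreated arrays they were found in 0 members (0.132%), and the median gap was -0.08. The first TSA-treated array held the highest of the 6 values in 27 members, against 13.4% of all genes.

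**Figure D3:**
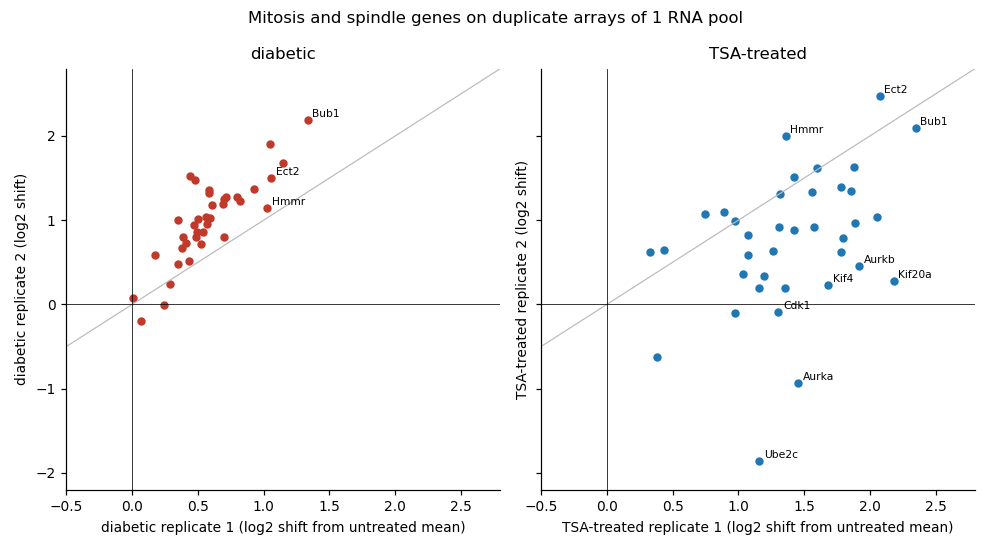
Shift of each of the 37 genes from its untreated non-diabetic mean (log2) on the first (horizontal axis) and second (vertical axis) array of the diabetic pool, left, and of the TSA-treated pool, right. The grey diagonal marks equal values. In diabetic mice 34 genes lie above the diagonal, and in TSA-treated mice 28 lie below it, furthest for Ube2c.

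The arrays also differed in their 3′ and 5′ control signals, both between groups and between duplicates of 1 RNA pool. Control probe sets on the array read beta-actin and Gapdh near their 3′ end and near their 5′ end, and a larger 3′ minus 5′ gap marks cDNA that stops short of the 5′ end. For beta-actin the gap was 2.35 and 2.05 in untreated non-diabetic, 2.42 and 3.32 in diabetic and 3.45 and 5.61 in TSA-treated mice, and for Gapdh 2.67 and 1.91, 1.82 and 3.19, and 3.85 and 4.58. The second TSA-treated array had the widest gap in both. On the first diabetic array, whose gaps were close to the untreated ones, all 37 members were above their untreated mean by a median of 0.54, as were 52.6% of all genes. On the second diabetic array the median shift was 1.01, on the TSA-treated arrays 1.36 and 0.83. Within the diabetic pool the array with the wider 3′ to 5′ gap had the higher mitosis values, and within the TSA-treated pool the lower ones. The part of RNA condition, labelling or hybridization in these differences was not tested.

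Other cell cycle genes also had higher means in both groups. In a list of 69 further mitosis genes (condensins, other kinesins and kinetochore genes), 68 were measured and none was called by limma in any comparison. Higher at an unadjusted limma p under 0.05 were 32 in diabetic and 39 in TSA-treated mice, against 4.33% and 8.8% of all genes. The LPE test called 2 and 8 higher, against 0.187% and 0.462% of all genes. In the list of 34 DNA replication genes, 32 were measured with none called by limma, and the medians were 0.70 and 0.89. Of these, 17 and 22 were higher at an unadjusted limma p under 0.05, against the same 4.33% and 8.8%. The genes with the highest mean in each list were Cks1b and Cks2, the small subunits that bind Cdk1, and Pcna and Mcm7, the polymerase clamp and a subunit of the replicative helicase. Cks2 was at 10.03 and 9.96, 11.06 and 11.17, and 11.06 and 11.61. Its diabetic and TSA-treated arrays were all above the untreated ones. Cks1b was higher by 0.28 and 1.03, Pcna by 0.79 and 0.69 and Mcm7 by 0.47 and 0.65.

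Marker lists of cells that could carry mitotic RNA gave the following values. Of 12 measured erythroid precursor genes, 9 did not overlap and were higher in diabetic mice and 8 in TSA-treated mice, against 25.5% and 29.9% of all genes. The median differences were 0.56 and 0.75, and none was called by limma. LPE called Tfrc and Hemgn higher in diabetic and Epb42 in TSA-treated mice. Slc4a1, the band 3 anion exchanger of red cells, was higher by 0.17 and 0.54, and Tfrc, the transferrin receptor, by 0.96 and 0.78. Of further genes, chosen after their values were seen, Epb42 was higher by 1.40 and 2.19, Hemgn by 0.90 and 1.34, Ermap by 0.70 and 1.38 and Klf1, the erythroid transcription factor, by 0.82 and 0.95. Alas2, which starts heme synthesis, differed by -0.00 and -1.11 and Gata1 by -0.26 and -0.66, and both overlapped the untreated arrays in each group. The list's median shift by array was 0.02 and -0.02, 0.58 and 0.47, and 1.21 and 0.38.

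The germinal centre B cell list (5 of 6 measured) had a median difference of 0.24 in diabetic and 0.42 in TSA-treated mice. Bcl6, its defining regulator, was higher by 0.12 and 0.42 and Gcsam by 0.24 and 0.17. The plasma cell list (5 measured) had medians of -0.15 and -0.50, led by Jchain at 0.02 and -0.22 and Xbp1 at -0.36 and -0.82. The lymphocyte list (7 of 8 measured) had a median of -0.21 in diabetic and -0.80 in TSA-treated mice, all 7 with a lower mean in the latter. Ptprc, CD45, differed by 0.19 and -0.00 and Ms4a1, CD20, by -0.09 and -1.24. None of these genes was called by limma, and the part of cell composition in the mitosis values was not tested.

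Digestive enzymes of the exocrine pancreas were far higher on the diabetic and TSA-treated arrays of the same pools. All 10 measured genes of 12 (Clps, Cpb1, Ctrl, Cel, Cela3b, Cpa1, Pnliprp1, Spink1, Zg16 and Rnase1) were called higher by limma in diabetic mice (median 6.31) and all but Cel in TSA-treated mice (median 3.51). Between these groups Cpb1, Ctrl, Cela3b, Pnliprp1 and Rnase1 were called higher in diabetic mice. Their part in the mitosis values was not tested.

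**Figure D4:**
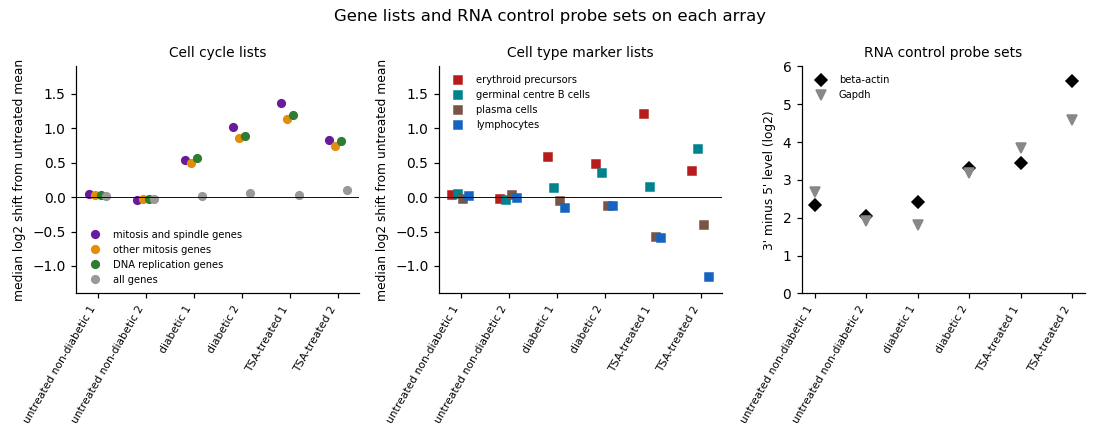
Median shift from the untreated non-diabetic mean (log2) over each gene list on the 6 arrays, for cell cycle lists and all genes, left, and for marker lists, middle, with the gap between 3′ and 5′ probe sets of beta-actin and Gapdh (log2), right. The 3 cell cycle lists lie between 0.50 and 1.36 on the diabetic and TSA-treated arrays while all genes stay within 0.11 of 0, and the second TSA-treated array has the widest 3′ to 5′ gaps (5.61 and 4.58).

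The remaining probe sets of the same genes gave smaller differences. Altogether 84 probe sets name the 37 genes alone, and 12 genes have only 1. The 47 that were not chosen had a median level of 4.44, against 8.06 for the chosen ones and array medians from 3.79 to 3.95. Of these 47, 35 had a higher mean in diabetic and 36 in TSA-treated mice, with median differences of 0.26 and 0.40. None of the 84 was called by limma. Where all probe sets of a gene were averaged, the median difference over the 37 genes in TSA-treated mice was 0.74 and limma called Bub1, Mad2l1, Ndc80 and Ect2 higher, against 0.605% of all genes.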

How the data were processed

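Each of 3 groups of NOD mice gave 1 pool of spleen RNA, labelled and hybridized in duplicate (6 Affymetrix arrays). The deposited values are log2 levels that the authors made by quantile normalization and RMA. No level filter was applied. Of 45101 probe sets, 64 Affymetrix controls were left out. The annotation assigns 1 gene to 34945 of the remaining 45037, several to 932 and none to 9160. The members and lists were chosen with earlier results of these data known.

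A single limma fit (version 3.58.1, R 4.3.3) covered all arrays, with a mean for each group (3 residual and 2.94 prior degrees of freedom), Benjamini-Hochberg adjustment over all probe sets, and a call at an adjusted p under 0.05. Arrays are few, which limits the precision. Text names all members and, of each other list, genes called by limma and the 2 with the highest mean, and says so where others were chosen after their values were seen. Alternatives were a replicate block, leaving out each array, the 2 groups alone, the LPE test (written from its published description), the methods' t-test, analysis of variance, an intensity trend or robust variances in limma, a filter on dim probe sets, other normalizations and other probe sets per gene. The tests were tested on simulated data. Promoters were searched for exact letters on both strands.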

Additional observations from a re-analysis of the deposited data

How the results depend on the processing

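The medians against untreated non-diabetic mice kept their direction under all alternatives run. With each array left out in turn, the median difference over the 37 genes ranged from 0.54 to 1.01 in diabetic mice, from 0.83 to 1.36 in TSA-treated mice and from -0.56 to 0.01 between diabetic and TSA-treated mice, where it was -0.03 without diabetic replicate 1 and 0.013 without TSA-treated replicate 1. With TSA-treated replicate 1 left out, the diabetic mean exceeded the remaining TSA-treated array by 2.48 for Ube2c and by 1.60 for Aurka. The median over the 37 genes in that fit was 0.013. Against untreated mice, 8 members were called higher after TSA with the 2 groups fitted alone, where 0.945% of all genes were. LPE called 4 higher, against 0.462% of all genes, and averaging a gene's probe sets gave 4 (median 0.74), against 0.605%. For diabetic mice LPE called 1 higher, against 0.187% of all genes. The cause was not tested. A group left with 1 array was taken to vary like the others. Under any alternative the sign of the difference changed in 5 members in diabetic mice, 8 in TSA-treated mice and 26 between these groups.

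The replicate numbers do not pair the samples: differences between duplicates correlated at -0.34 (untreated non-diabetic with diabetic), -0.04 and -0.10. With the replicate number as a block 0 members were called in each comparison, and 17 and 24 were higher and 6 lower at an unadjusted p under 0.05, against 3.07%, 7.27% and 1.85% of all genes. A crossed block, added after seeing the data, also called 0 (24, 29 and 7, against 5.86%, 9.57% and 2.85%). The part of background signal in the smaller changes of dim probe sets, near the array medians, was not tested.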

Other observations

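The genes named here from the 68 other mitosis genes were chosen after their values were seen. Ncapg, a condensin subunit that compacts chromosomes, was at 6.45 and 6.22 in untreated non-diabetic, 7.59 and 8.03 in diabetic and 8.51 and 8.74 in TSA-treated mice, in 3 separate steps like Ect2 and Ttk. Its difference was 1.48 in diabetic (adjusted p = 0.381, limma) and 2.29 in TSA-treated mice (adjusted p = 0.0539). Depdc1a, a mitotic protein, was higher by 1.54 and 2.77. At the other end Fzr1, the Cdh1 activator that keeps the anaphase-promoting complex on after mitosis, was at 4.68 and 4.88, 5.20 and 4.50, and 4.58 and 2.83, so that the second TSA-treated array alone lay far below. Foxm1, a transcription factor of G2 and M phase genes, was higher by 0.12 and 0.18, with levels from 5.11 to 5.50 on the 6 arrays.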
